A study of Schizosaccharomyces pombe with 3 samples.

Results

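The genes of 33 DNA-binding regulators of the fission yeast Schizosaccharomyces pombe were examined for association of Tup12-GFP with the DNA around them. They were taken by name from a microarray that carries separate features for reading frames and for intergenic regions, by symbol, older symbol or systematic identifier. Of the 33 genes, 31 had at least 1 feature on the array; sep1 and grt1 were not matched. Together they held 61 of 9935 named features: 31 reading frames, 29 intergenic regions and 1 additional long intergenic region, that of mbx2. All 3 arrays came from a single group. Cells carrying Tup12 fused to green fluorescent protein (GFP) had been grown in YES, a rich medium, to the middle of logarithmic growth, and were crosslinked, sonicated and immunoprecipitated with a polyclonal antibody against GFP. Each array compared the precipitated DNA, labelled with Cy5, with input DNA, labelled with Cy3, after a linear amplification of both. The labels call the 3 experiments separate; no untagged strain, other growth condition or dye swap was among the samples analysed here, so unspecific precipitation and dye effects cannot be told apart from binding. The input was the background of every ratio.

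Tup12 is 1 of the Tup1-type corepressors of fission yeast; the others of the complex are Tup11 and Ssn6. Such corepressors do not bind DNA by themselves: sequence-specific factors recruit them to promoters, where they are known to repress transcription through histone deacetylation, nucleosome placement and contacts with the transcription machinery. Genes for transcription factors are themselves known corepressor targets in budding yeast, where stress, mating and nutrient pathways share the complex. The regulators examined here act in stress and stationary phase (rsv1, rsv2, klf1, phx1, hsr1, prz1, zip1), in nutrient response, mating and meiosis (sak1, gaf1, esc1, moc3, cuf2, atf21, atf31), in cell adhesion and the cell cycle (cbf11, cbf12, mbx1, mbx2, adn2, adn3, sep1, fkh2), and at ribosomal, histone or ribosomal RNA genes (fhl1, ams2, reb1). The toe genes are named for the elongated cells seen on overexpression, and sre2 and ntu2 encode membrane-tethered factors.

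The 250 bases before the annotated transcript start are shown for the genes whose intergenic features had the highest and the lowest ratios below and whose annotated transcript is complete. They are from the RefSeq reference genome, build ASM294v3; the array's own build was not given in the sources used here, and the span of the array's own features is unknown. Rsv2, sak1 and cbf12 had intergenic features called enriched. Hsr1 and deb1 had the lowest means among the 14 member intergenic features measured on all 3 arrays, the long region of mbx2 not counted. Capitals mark every match, on either strand, to 8 short motifs known from fission yeast factors.
rsv2, II:3532678-3532927 (+ strand): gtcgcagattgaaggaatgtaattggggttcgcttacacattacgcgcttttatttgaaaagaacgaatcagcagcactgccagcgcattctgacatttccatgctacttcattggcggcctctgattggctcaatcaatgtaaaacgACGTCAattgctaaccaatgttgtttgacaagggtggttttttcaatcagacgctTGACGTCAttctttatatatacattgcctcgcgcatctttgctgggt
sak1, I:3149720-3149969 (- strand): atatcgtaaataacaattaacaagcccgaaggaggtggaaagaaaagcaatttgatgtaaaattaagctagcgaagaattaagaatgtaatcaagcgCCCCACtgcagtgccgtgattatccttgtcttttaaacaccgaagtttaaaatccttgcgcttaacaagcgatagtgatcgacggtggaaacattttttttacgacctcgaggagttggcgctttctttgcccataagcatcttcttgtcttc
cbf12, III:1871117-1871366 (+ strand): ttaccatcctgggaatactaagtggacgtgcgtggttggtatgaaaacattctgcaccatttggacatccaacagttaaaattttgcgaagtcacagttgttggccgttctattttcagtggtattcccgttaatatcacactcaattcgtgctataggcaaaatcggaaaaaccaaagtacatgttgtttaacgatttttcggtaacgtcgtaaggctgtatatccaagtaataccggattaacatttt
hsr1, I:1957223-1957472 (+ strand): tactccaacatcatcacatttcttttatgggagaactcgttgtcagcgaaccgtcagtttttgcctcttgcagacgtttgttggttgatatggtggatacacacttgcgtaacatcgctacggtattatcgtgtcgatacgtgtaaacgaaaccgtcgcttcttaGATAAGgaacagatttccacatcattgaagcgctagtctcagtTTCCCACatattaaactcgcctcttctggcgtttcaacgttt
deb1, I:3536245-3536494 (+ strand): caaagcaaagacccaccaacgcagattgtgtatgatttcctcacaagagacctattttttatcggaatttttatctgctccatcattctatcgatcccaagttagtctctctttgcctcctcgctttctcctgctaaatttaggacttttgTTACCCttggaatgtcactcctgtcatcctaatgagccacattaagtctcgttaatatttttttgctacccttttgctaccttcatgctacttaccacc
The window of rsv2, which had the highest ratio of all member intergenic features, held the CRE letters TGACGT, the core recognised by Atf/CREB-type bZIP factors, at 2 places. At the place nearer to the transcript start, the letters formed the 8-base palindrome TGACGTCA, so that both strands matched in overlapping positions, 47 bases before the start on the same strand. The other match began 102 bases before the start, on the opposite strand. No other member's window held these letters, against 285 of 5144 windows of the same length in the genome (5.54%), and the palindrome stood in 14 of them (0.272%).

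None of the other motifs was held by more than 1 of the 6 members whose intergenic feature was called enriched. The letters CCCCAC, known from C2H2 zinc finger factors, occurred in sak1, esc1 and rsv1 (9.09% of members, 2.7% of all windows), and CCCCTC in none of the 33 (1.69%). The CSL letters GTGGGAA occurred only in hsr1 among members (1.24%), whose window also held a GATA match. The GATA letters GATAAG occurred in 7 of the 33 members (21.2%), among them toe1, hsr1 and klf1, against 10.1% of all windows. The forkhead letters GTAAACA occurred in adn3, fkh2 and toe3 (9.09% of members, 14.8% of all windows), and the Reb1 core GGGTAA in cbf11, deb1, ntu2 and prz1 (12.1% of members, 7.97% of all windows). The calcineurin-response letters AGCCTC occurred only in atf21 among members (4.04%). The window of cbf12 held no match. For 7 members the annotated transcript is partial, so that their windows may begin closer to the reading frame than the true transcript start does.

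Values are log2 of the Cy5 over the Cy3 signal of a spot accepted in both channels, centred on the median of each array, so that 0 is the array's own median and 1 is a ratio of 2 times that median. Only features measured on every array were tested, with limma and against 0. A feature is called enriched or depleted where the adjusted p (Benjamini-Hochberg over all 5441 tested features) was under 0.05. Precision is limited by the number of arrays. Over the 41 tested member features, the arrays correlated with r of 0.85, 0.89 and 0.78. The same r over all tested features were 0.82, 0.84 and 0.73.

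Of the 29 intergenic features, 14 were measured on all 3 arrays, 3 on 2, 6 on 1 and 6 on none. Across the whole array, 45.1% of intergenic features and 64.3% of reading frames had a value on all 3. The missing values lay mostly in the input channel: of 90 spots of the member intergenic features that were not tested, 78 were accepted in the precipitate and 20 in the input. Intergenic features had dimmer input than reading frames over the array (medians of 624, 890 and 800 against 1132, 1917 and 1447 per pixel on replicates 1 to 3). In the precipitate the 2 classes were close (1172, 1041 and 1226 against 1164, 959 and 1213). Negative control spots accepted in that channel had medians of 911, 968 and 1198. Control spots that were not accepted are left out of these medians. The class medians thus differed more in the input than in the precipitate, and dim precipitate spots lay near the negative controls; the part of either in the values below was not tested except where stated.

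**Figure D1:**
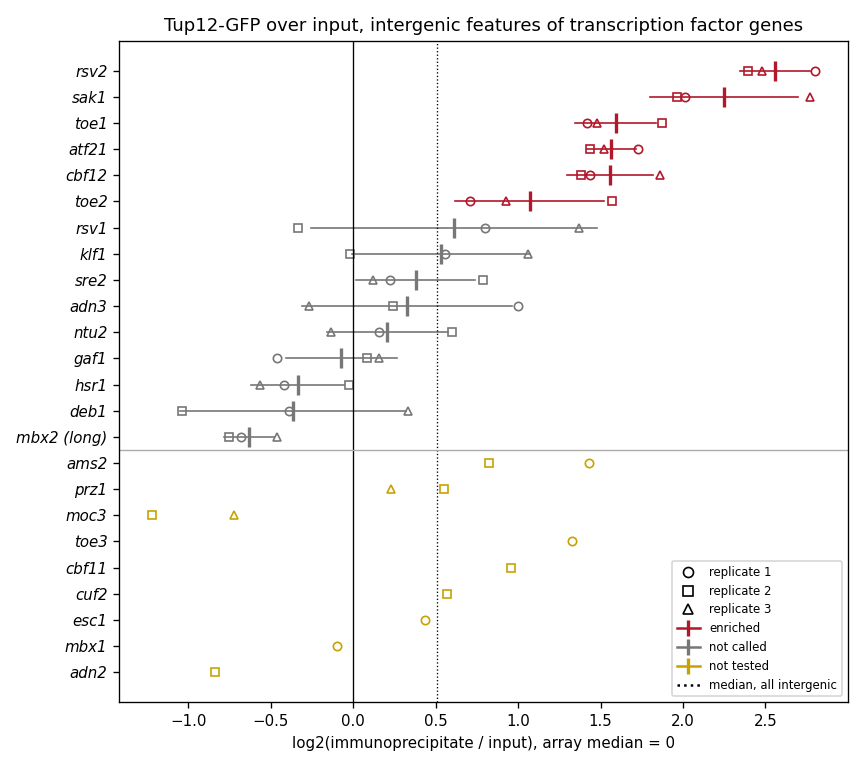
Ratio of each member's intergenic feature on each array (x axis, log2 of precipitate over input, array median at 0); symbols are replicates, the vertical tick is the mean and the line is 1 SD (n = 3), and features below the grey line lacked a value on at least 1 array. The 5 highest, rsv2 to cbf12, reach 1.38 or more on every array, while the next, toe2, begins at 0.71 and rsv1, klf1 and adn3 cross 0.

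Of the 14 tested intergenic features, 6 were enriched, 0 depleted and 8 not called. Over all intergenic features, 42.3% were enriched and 7.71% depleted, so that the members' share was near that of the array. The member median was 0.57, beside 0.51 over all 2230 tested intergenic features. The enriched members were rsv2, sak1, toe1, atf21, cbf12 and toe2. They came from several families: of the tested intergenic features, 1 of 1 was enriched in the CSL group, 1 of 1 in the bZIP group, 2 of 3 among fungal zinc cluster genes and 1 of 4 among C2H2 zinc finger genes. Among bHLH, RFX and other factors it was 1 of 3. The single tested GATA-type and LisH genes were not called, and no forkhead gene had a tested intergenic feature. The reference annotation describes klf1, counted here with the C2H2 genes, as a fungal binuclear cluster factor.

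The intergenic feature of rsv2, a C2H2 zinc finger gene known for stress-related genes in spores, gave 2.80, 2.40 and 2.48 on replicates 1 to 3. Its mean was 2.56 ± 0.21 (SD, n = 3), a ratio 5.89 times the array median (limma, adjusted p = 2.43e-08). All 3 values exceeded every value of the 8 members that were not called, and rsv2 ranked 105th of 2230 intergenic features. Its precipitate signal, 6574, 4928 and 6290 per pixel, was well above the negative controls, and its input signal of 656, 1146 and 967 was somewhat above the intergenic median of each array. With dim input spots left out it had no value on all 3 arrays, so its call could not be checked there. That setting drops the lowest 20% of accepted genomic spots of an array by total input signal of a spot, not by signal per pixel. The sequence shown above for rsv2 lies in the 742 bp between rsv2 and SPBC1105.13c, an uncharacterised gene transcribed away from it. The intergenic feature named after that neighbour gave 2.36, 2.92 and 2.20 (2.49 ± 0.38, limma, adjusted p = 5.00e-08), and its reading frame 2.72, 2.01 and 1.62. High ratios thus stood in the neighbour's reading frame too, whereas the reading frame of rsv2 itself was depleted. As the span of the array's features is unknown, the 2 intergenic features may cover the same DNA.

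The feature of sak1, which encodes an essential RFX-family protein of the cyclic AMP pathway, gave 2.01, 1.96 and 2.77 (2.25 ± 0.45, limma, adjusted p = 3.44e-07). Replicate 3 was the highest, and its lowest array was still above the highest value of toe1. Its precipitate signal was 3359, 3679 and 4784 per pixel, and its input of 579, 1144 and 597 lay below the intergenic median on replicates 1 and 3. The feature of the divergent neighbour msw1, across an interval of 1818 bp, was lower, at 1.04, 1.75 and 0.61 (1.13 ± 0.58, limma, adjusted p = 0.00199).

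Toe1, atf21 and cbf12 lay close together, and their ranges overlapped. The feature of toe1, a zinc cluster gene next to the uracil-regulated gene urg1, gave 1.42, 1.88 and 1.48 (1.59 ± 0.25, limma, adjusted p = 3.34e-05). The feature of atf21, a CREB-type bZIP gene that acts in meiosis, gave 1.73, 1.44 and 1.52 (1.56 ± 0.15, limma, adjusted p = 3.85e-05). The feature of cbf12, 1 of the CSL genes that control cell adhesion, gave 1.44, 1.38 and 1.86 (1.56 ± 0.26, limma, adjusted p = 4.34e-05). These are ratios of about 3 times the array median, and no order among the 3 genes can be read from the means.

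Several features of the neighbouring genes were enriched as well. On the other side of the 2019 bp before cbf12 lies meu10, a gene for a cell wall protein of spore formation; its intergenic feature gave 2.41, 1.53 and 2.28 (2.07 ± 0.47) and its reading frame 1.92, 2.37 and 1.45. Downstream of cbf12, the intergenic feature of aro2, for chorismate synthase, was not called, at 0.24, 0.48 and 0.45 (0.39 ± 0.13, limma, adjusted p = 0.242), and its reading frame was enriched, at 0.82. On the other side of the 2535 bp before atf21 lies mrpl35, for a mitochondrial ribosomal protein, with 3.07, 2.19 and 1.81 in its intergenic feature (2.36 ± 0.64) and 1.44, 0.93 and 1.96 in its reading frame. Downstream of toe1, the intergenic feature of uck2, for uracil phosphoribosyltransferase, gave 1.69, 2.39 and 1.77 (1.95 ± 0.39). Upstream of toe1, urg1 had no feature measured on all 3 arrays, but its reading frame gave 3.51 and 2.38 on replicates 1 and 3 and its intergenic feature 3.39 on replicate 2. The features of meu10, mrpl35 and uck2 named here were enriched (limma, adjusted p from 2.72e-07 to 0.000157).

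Toe2, a further zinc cluster gene, gave 0.71, 1.57 and 0.93 in its intergenic feature (1.07 ± 0.45, limma, adjusted p = 0.00271). Replicate 2 was the highest, and it alone reached the range of toe1, atf21 and cbf12. Its precipitate signal of 950, 1290 and 921 per pixel was near that of the negative controls, and its input of 457, 529 and 411 was dim. The call was lost when features were compared with those of their own class (0.43), with those of their class at like input signal (0.06), with loess normalization (0.67), with flagged spots kept (0.96) and in the authors' precipitate values (0.02). The other 5 enriched members kept their call under the first 3 of these settings.

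The 8 members not called spanned means from -0.37 to 0.61. Rsv1, a repressor needed for survival in stationary phase, gave 0.80, -0.34 and 1.37, so that its spread between arrays (SD 0.87) exceeded its mean of 0.61. Without replicate 2 the mean was 1.08 and passed the test. Rsv1 also passed with arrays centred on reading frames (1.04), with dim input left out (0.88) and at like input signal (0.81). In the authors' precipitate values it passed too (2.57). Under the remaining settings, class centring (-0.03) and loess (0.81) among them, it did not pass. Klf1, for a factor of long-term quiescence, gave 0.55, -0.02 and 1.06, with replicate 2 again the lowest, and passed at 0.81 without it. Klf1 also passed with arrays centred on reading frames (0.96) and with dim input left out (0.80), but not under the remaining settings. Adn3, for a LisH-domain factor of cell adhesion, gave 1.00, 0.24 and -0.27. Sre2 gave 0.22, 0.79 and 0.12, and ntu2 gave 0.15, 0.60 and -0.13.

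Gaf1, for a GATA-type factor of nutrient sensing, gave -0.46, 0.08 and 0.16, on both sides of the array median. The lowest were hsr1, for a zinc finger factor of the response to hydrogen peroxide, with -0.42, -0.02 and -0.57, and deb1, which the array lists under its older symbol rdp1, with -0.39, -1.04 and 0.33. Neither differed from 0, but both lay below 0.51, the median of intergenic features. When features were centred on their own class, hsr1 (-0.98), deb1 (-1.0), gaf1 (-0.71) and the long region of mbx2 (-1.27) were called depleted, as were 26.6% of all intergenic features. Against features of their class at like input signal none of them was called: hsr1 lay at -0.30, deb1 at -0.17, gaf1 at 0.16 and the long region of mbx2 at -0.40. That long region, before a MADS-box gene of cell adhesion, gave -0.68, -0.76 and -0.46 (-0.63 ± 0.15, limma, adjusted p = 0.0575); it was below 0 on every array, and its reading frame lay above 0 on every array.

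A member's own intergenic feature could differ from that of its divergent neighbour in a shared interval. Across 1768 bp, sre2 had a mean of 0.38 and was not called, whereas the feature of mrps16, a mitochondrial ribosomal protein gene, gave 0.92, 2.64 and 1.76 and was enriched (1.77 ± 0.86, limma, adjusted p = 2.87e-05). Across 1171 bp, klf1 had a mean of 0.53. The feature of SPAC1039.06, annotated with D-serine ammonia-lyase activity, gave 0.90, 1.48 and 1.17 (1.19 ± 0.29, limma, adjusted p = 0.000897). The differences between these neighbours were not tested. Over the array, intergenic features of divergent neighbours correlated at r = 0.66 (574 pairs), against 0.26 for tandem (392 pairs) and 0.22 for convergent neighbours (450 pairs). This is a correlation across regions that share libraries and, where divergent, part of the DNA, and it is the basis for reading an intergenic feature as lying upstream of the gene it is named after.

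The members' upstream intervals were long. Distances were taken between the coding sequence of a gene and that of its upstream neighbour, so they include untranslated regions. Their median was 1798 bp over the 33 members and 881.5 bp over 5144 genes, and 29 of the 33 exceeded the latter. The intervals in bp given for single genes are of the same kind. Of the 33 genes, 22 have a divergent neighbour and 11 a tandem one; of all genes, 54.6% have a divergent one. Base composition of the 250 bases before the transcript start was 35.2% G and C in the median member and 32% over all genes. Fkh2 and ntu1 face each other across 1337 bp, and neither intergenic feature had a ratio on any array.

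The features measured on fewer arrays had values from -1.22 to 1.43. Ams2, for a GATA-type activator of histone genes, gave 1.43 and 0.82 on replicates 1 and 2. Prz1, the calcineurin-responsive factor, gave 0.55 and 0.23 on replicates 2 and 3, and moc3, a zinc cluster gene of sexual development, -1.22 and -0.72. On a single array toe3 gave 1.32, cbf11 0.95, cuf2 0.57, esc1 0.44, mbx1 -0.10 and adn2 -0.84. The features of fhl1, fkh2, zip1, ntu1, atf31 and reb1 had no ratio on any array. In the precipitate channel fhl1 gave 2739, 1379 and 1742 per pixel, above the negative controls on each array, while fkh2 at 1034, 941 and 1170 lay about level with them. Without an accepted input these signals give no ratio.

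**Figure D2:**
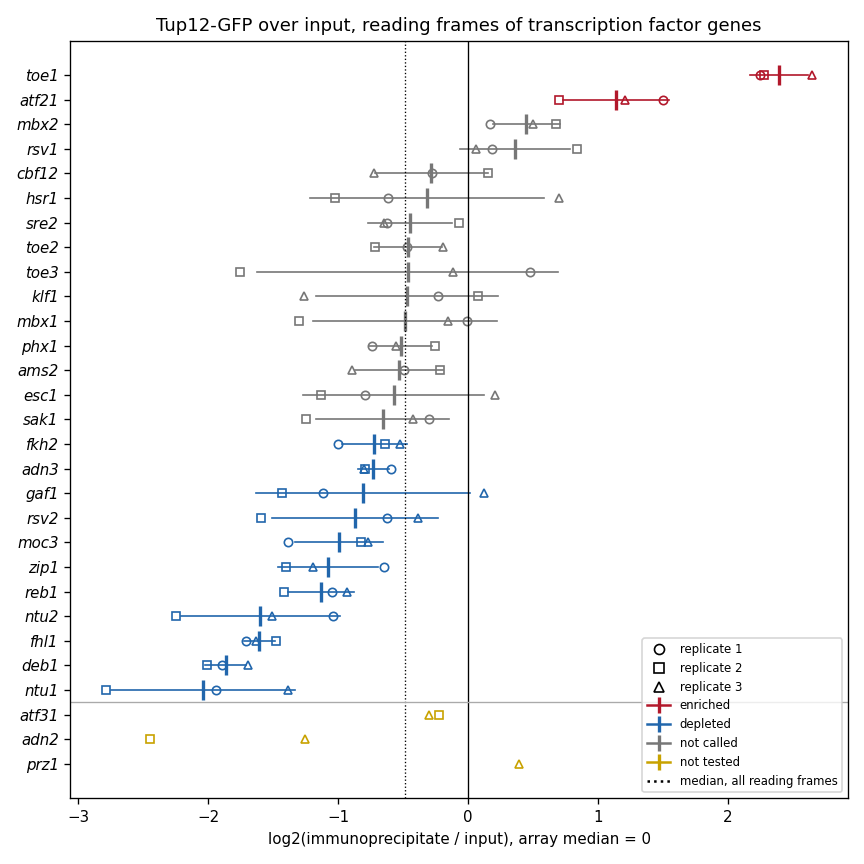
Ratio of each member's reading frame on each array (x axis, log2 of precipitate over input, array median at 0); symbols are replicates, the vertical tick is the mean and the line is 1 SD (n = 3), and frames below the grey line lacked a value on at least 1 array. Toe1 stands alone above 2, atf21 follows at 1.14, and the 11 depleted frames run from -0.72 to -2.04.

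Of the 31 reading frames, 26 were tested; 2 were enriched, 11 depleted and 13 not called. Over all 3211 tested reading frames, 8.19% were enriched and 38.8% depleted, and the members' shares were near these. The member median was -0.55, and that of all reading frames was -0.49. Prz1, adn2 and atf31 had values on 1 or 2 arrays, and cbf11 and cuf2 on none: adn2 gave -2.45 and -1.25 on replicates 2 and 3, atf31 -0.22 and -0.30, and prz1 0.39 on replicate 3. Besides mbx2, which has its long region, phx1 was the member with a reading frame but no matched intergenic feature.

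The reading frame of toe1 gave 2.25, 2.28 and 2.65 (2.39 ± 0.22, limma, adjusted p = 8.21e-08), a ratio 5.25 times the array median, and ranked 19th of 3211. Its 3 values exceeded every other reading frame among the members. The height of this ratio stood beside a dim input: the precipitate gave 1383, 1360 and 1722 per pixel, above the negative control medians of 911, 968 and 1198, and the input 210, 345 and 235. With dim input spots left out, this reading frame had no value on all 3 arrays, and in the authors' precipitate values it did not pass. The reading frame of atf21 gave 1.5, 0.70 and 1.21 (1.14 ± 0.41, limma, adjusted p = 0.00151), from a bright precipitate of 4694, 2910 and 4185 and an input of 1157, 2217 and 1537. Replicate 2 was the lowest, and the call was lost without replicate 1, at 0.95, and with flagged spots kept, at 0.37. Toe1 and atf21 were the members with both features enriched, 2 of the 14 with both tested. The same share over all genes was not counted, so this count is not read as particular to the members.

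Mbx2 and rsv1 followed at 0.45 and 0.36 without passing the test. Mbx2 gave 0.17, 0.67 and 0.50 and rsv1 0.18, 0.84 and 0.06, above 0 on every array. Both had bright precipitate and input, for mbx2 3888, 6702 and 5982 against 2414, 5124 and 3585 per pixel. Compared with reading frames of like input signal, both were called enriched, at 1.5 and 1.23, as were 17.9% of all reading frames.

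The most depleted reading frames were those of ntu1 (-1.94, -2.79 and -1.39, mean -2.04 ± 0.70), deb1 (-1.89, -2.01 and -1.70, mean -1.86 ± 0.16), fhl1 (-1.71, -1.47 and -1.63, mean -1.60 ± 0.12) and ntu2 (-1.04, -2.25 and -1.51, mean -1.60 ± 0.61). Each was below the array median on all 3 arrays, with limma adjusted p from 2.96e-06 to 5.59e-05. Ntu1 and deb1 had a bright input, 6006, 12470 and 11010 per pixel for ntu1 and 4365, 9911 and 6239 for deb1, beside a precipitate above that of the median reading frame on each array. Fhl1, a forkhead activator of ribosomal protein genes, had a precipitate of 994, 971 and 1107, near the negative controls. Against reading frames of like input, fhl1 was no longer called, at -0.46, and ntu1, deb1 and ntu2 were, 3 in all.

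The other 7 depleted reading frames were those of reb1 (-1.13), zip1 (-1.08), moc3 (-0.99), rsv2 (-0.87), gaf1 (-0.81), adn3 (-0.73) and fkh2 (-0.72). Reb1, which ends ribosomal RNA transcription, gave -1.04, -1.41 and -0.93, and zip1, the bZIP factor of the cadmium response, -0.65, -1.40 and -1.19. Gaf1 gave -1.12, -1.43 and 0.12, so that replicate 3 lay above the array median; without replicate 1 or replicate 2 it did not pass. At like input gaf1 and zip1 lay at 0.16 and 0.07, on the other side of 0. Fkh2, adn3, gaf1, rsv2 and moc3 lost the call without replicate 1, gaf1 and rsv2 without replicate 2, and fkh2 and adn3 without replicate 3. Centred within their class alone, without regard to input, fkh2, adn3, gaf1, rsv2 and moc3 also lost the call, at -0.34 to -0.61, while zip1 and reb1 kept it. Depletion of these frames is a low ratio to input relative to the array median.

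The remaining 11 reading frames that were not called had means from -0.28 (cbf12) to -0.66 (sak1), around the median of all reading frames. Toe2 (-0.46), sre2 (-0.45), phx1 (-0.52) and ams2 (-0.53) were below 0 on every array, as were sak1 and mbx1. Phx1, a homeodomain factor of stationary phase, gave -0.74, -0.26 and -0.55, and sak1 gave -0.30, -1.25 and -0.42, far from the 2.25 of its intergenic feature. Cbf12 and klf1 had arrays on both sides of 0, and so did hsr1 (-0.62, -1.03 and 0.70), toe3 (0.48, -1.75 and -0.12) and esc1 (-0.80, -1.13 and 0.21). Mbx1 gave -0.01, -1.30 and -0.15, with replicate 2 apart from the others. Ams2 passed without replicate 2, at -0.69, and esc1 without replicate 3, at -0.96.

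**Figure D3:**
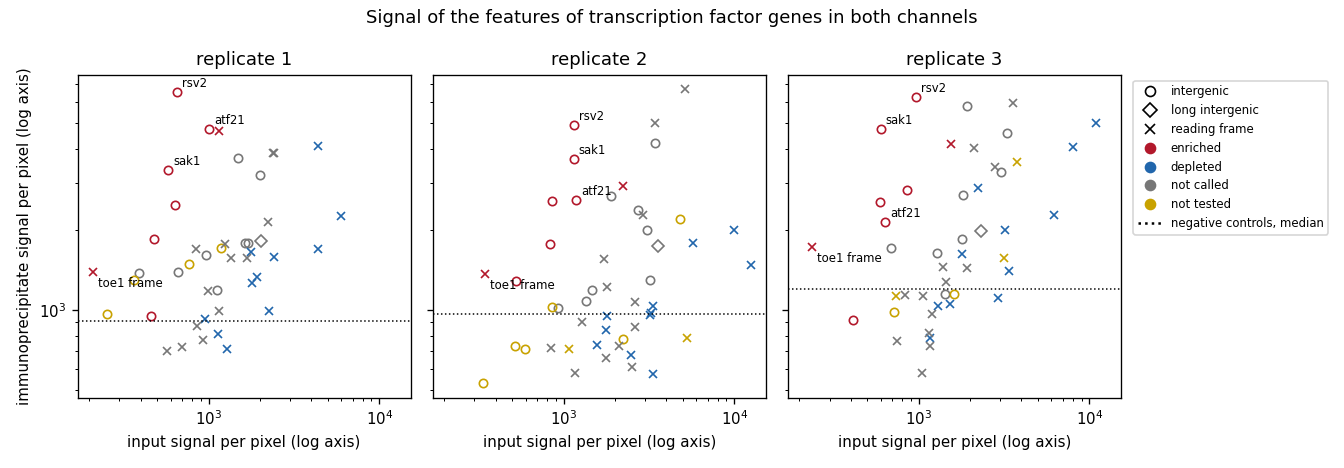
Signal of each member feature in the precipitate (y axis) and in the input (x axis), in intensity per pixel on log axes, 1 panel per replicate. Symbols give the kind of feature and colours the call. The dotted line is the median precipitate signal of the negative control spots accepted in that channel (911, 968 and 1198). The enriched intergenic features of rsv2 and sak1 stand high in the precipitate. Their input was 656, 1146 and 967 per pixel for rsv2 and 579, 1144 and 597 for sak1. The toe1 reading frame has a dim input, and depleted frames include the brightest inputs.

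For the 14 members with both features tested, the intergenic feature was compared with the reading frame on the same array, a difference that does not depend on the centring. Intergenic was higher at an adjusted p under 0.05 in 7 members and the reading frame in 0; over all 1293 genes, the shares were 47.6% and 3.33%. The mean difference was above 0 in 12 of the 14, with a median of 1.03, beside 0.94 over all genes. The members again lay near the array as a whole.

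Rsv2 differed most: its intergenic feature exceeded its reading frame by 3.42, 3.99 and 2.87 (3.43 ± 0.56, limma, adjusted p = 0.00115). Sak1 followed with 2.32, 3.21 and 3.19 (2.90 ± 0.51, limma, adjusted p = 0.0012). In both genes every array showed a difference above 2, made of a high intergenic ratio and a reading frame below the array median. Cbf12 (1.84), ntu2 (1.81), toe2 (1.53), deb1 (1.5) and adn3 (1.05) also passed. In deb1, ntu2 and adn3 the intergenic feature itself was not enriched, and the difference came with a depleted reading frame. Without replicate 1, rsv2 and sak1 were the 2 members that passed.

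Toe1 and hsr1 had mean differences below 0, and only toe1 was below 0 on all 3 arrays. Written as intergenic minus reading frame, toe1 gave -0.83, -0.40 and -1.17 (-0.80 ± 0.38, limma, adjusted p = 0.0735), which did not pass. Without replicate 2 it did, at -1.0. With loess (0.44) and in the series matrix (1.03) the sign turned, without passing. Atf21, with both features enriched, differed by 0.43 (95% interval -0.31 to 1.16). Hsr1 had a difference of -0.02, with arrays from -1.26 to 1.00. Over the 14 members, the mean ratios of the 2 features correlated across genes at r = 0.38, and over 1301 genes at 0.41; genes are not independent replicates, and the features share library and neighbourhood.

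**Figure D4:**
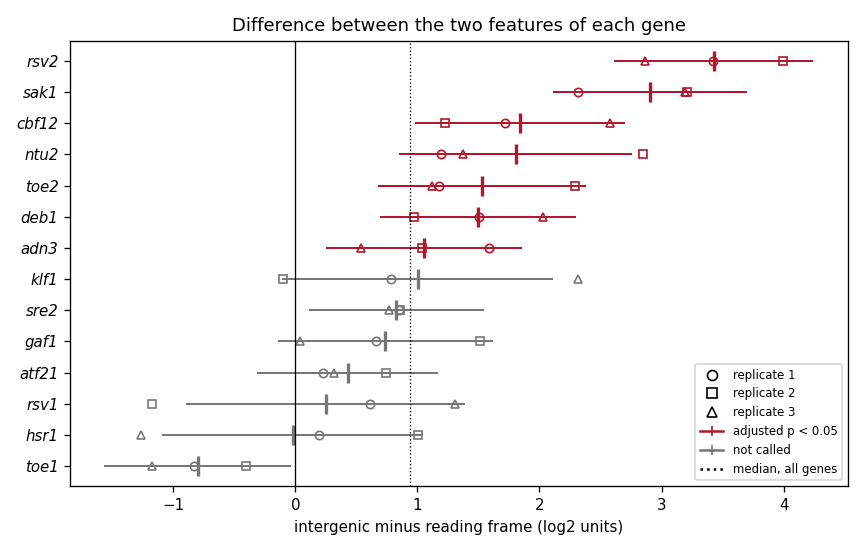
Difference between the intergenic feature and the reading frame of each member with both tested (x axis, log2 units); symbols are replicates, the vertical tick is the mean and the line the 95% interval of the limma fit. Rsv2 and sak1 lie farthest right at 3.43 and 2.90, and toe1 lies left of 0 at -0.80.

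The study's own binding lists took features whose median percentile rank over repeat spots and arrays reached the 85th percentile. By this rule 7 member features entered, 5 intergenic (rsv2, sak1, atf21, toe1 and cbf12) and 2 reading frames (toe1 and atf21). Of all tested intergenic features 25.2% did, and of all reading frames 3.77%. Just inside the limit lay the reading frame of atf21, at a median rank of 85.8, and just outside it the intergenic feature of toe2, at 81.0. The intergenic feature of ams2 had a median rank of 85.6 from its 2 arrays and was not counted, since 3 were required.

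Of 36 other DNA-binding regulators taken as a reference list, 13 had a tested intergenic feature, and 6 of these were enriched and 0 depleted, with a median of 0.61. The highest were prr1 (2.77 ± 0.53), which encodes a response regulator of oxidative stress, pho7 (1.81 ± 0.33), the activator of the phosphate response, pap1 (1.40 ± 0.82), the AP-1-like factor, teb1 (1.05 ± 0.64) and php2 (0.90 ± 0.57). Prr1 gave 3.37, 2.58 and 2.35, and its range overlapped that of rsv2. The lowest were mca1 (-0.67), fep1 (-0.09), pcr1 (-0.01), php4 (0.34) and fil1 (0.40). Of 23 tested reading frames of these regulators, 0 were enriched and 9 depleted, with a median of -0.51. The counts of the 2 lists stood close to each other and to the array. Of the corepressor's own genes, the reading frames of tup11 (-1.47 ± 0.24) and ssn6 (-0.88 ± 0.27) were depleted, and the intergenic feature of ssn6 (0.54 ± 0.41) was not called. No feature was matched to tup12: the array lists a reading frame as tup1 (-0.40 ± 0.44, not called), which the files do not pair with tup11 or tup12.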

How the data were processed

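Both channels of 3 arrays were analysed, with the general assignment of input to Cy3 and precipitate to Cy5 taken from the labels. The authors deposited spot intensity values per channel, quantified with TIGR Spotfinder per the labels' protocols, from which local background had already been taken off; a build and versions were not given in the sources used here. Their series matrix holds log10 values, normalized to the 50th percentile in GeneSpring per the labels; these deposited values follow the precipitate channel alone and were used as an alternative.

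Of 22176 spots per array, 19878 were genomic, and 63.5%, 67.8% and 63.3% of these were accepted (flags other than X) in both channels. The log2 ratio was formed from the deposited intensities and had the array's median (0.52, -0.29 and 0.24) taken off, and repeat spots, which correlated with r of 0.93 to 0.94, were averaged. Of negative controls, the precipitate channel accepted 42.1%, 49.6% and 45.3% and the input channel 1.85%, 1.79% and 1.54%. Names matched a gene of ASM294v3 for 9510 of 9935 features; a further 232 were named only as missing and 49 pieces without a gene were left out. The array's rdp1 was matched to deb1. A feature named 01-sep, with 0.06, 0.00 and -0.69, is not paired with a gene by the files and was left out.

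Means were tested against 0 with limma 3.58.1 in R 4.3.3 (lmFit, eBayes, two-sided, Benjamini-Hochberg over all features with a value on 3 arrays), and likewise the difference of a gene's features; the fit was tested on simulated data. Where the experiments are not separate cultures, p-values measure only the spread between arrays. All 33 members are named; of the other regulators, the 5 highest and 5 lowest intergenic features are. Members, lists and motifs were chosen with earlier results of these data known. From the list of other regulators abp1 and nrg1 were removed, since the reference gives those symbols to other genes. Alternatives were centring, background, loess, flags, dim input, the series matrix, arrays required, the list limit and each replicate left out.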

Additional observations from a re-analysis of the deposited data

How the results depend on the processing

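The counts of called members depended on the processing more for reading frames than for intergenic features. Enriched intergenic features numbered 6 of 15 tested, the long region of mbx2 included, but 10 of 15 when arrays were centred on reading frames. With flagged spots kept at a floor they numbered 10, but of 30 tested, and toe1, atf21, cbf12 and toe2 lost their call there. Without a replicate they numbered 6 to 8. Depleted intergenic features numbered 0, but 1 with flagged spots kept, 1 with features on at least 2 arrays and 4 when centred within class (0 at equal input). Enriched reading frames numbered 2, but 4 when centred on reading frames, within class or at equal input, 5 in the series matrix and 1 to 2 without a replicate (1 without replicate 1). Depleted reading frames numbered 11, but 5 when centred on reading frames, 1 after a second background subtraction, 7 with loess, 7 without dim input, 0 in the series matrix, 6 within class, 3 at equal input and 7 to 10 without a replicate (7 without replicate 1). The centrings within class and at equal input were chosen after the data were seen. Members with a higher intergenic feature numbered 7 of 14 tested, but 4 of 10 after a second background subtraction, 3 of 9 without dim input, where fewer had values, 0 of 12 in the series matrix and 2 to 8 without a replicate (2 without replicate 1). Member features on the rank list numbered 7, but 11 in the series matrix, and 6 to 8 without a replicate. In the series matrix, which holds the precipitate channel alone, these reading frames were above 0: ntu1 (2.06), zip1 (1.98), deb1 (1.64), gaf1 (1.53), reb1 (0.45) and fkh2 (0.30), as were the intergenic feature of gaf1 (1.87) and the long region of mbx2 (1.58), and the difference of deb1 was -0.55; that of toe1, not called, was 1.03 there and 0.44 with loess. At equal input, gaf1 (0.16) and zip1 (0.067) reading frames turned sign. The shares over the array moved too. Of all intergenic features, 60.4% were enriched when centred on reading frames, 20.9% within class, 25.9% at equal input, 28.0% with flagged spots kept and 16.0% in the series matrix, and 26.6% were depleted within class. Of all reading frames, 17.3% were enriched when centred on reading frames, 16.0% within class and 17.9% at equal input, and 19.5%, 20.8% and 9.62% were depleted under these. For the other counts and settings, among them all counts of gene differences and of the rank list, no share over the array is given here. Those shifts cannot be read as particular to the members. The causes were not tested, except that the matrix lacks the input by construction. The intergenic features of rsv2 and sak1 kept their call under every alternative that measured them (12 for rsv2 and 13 for sak1; rsv2 and cbf12 had no value on all arrays without dim input); those of toe1, atf21 and cbf12 lost it only with flagged spots kept (0.82, 0.79 and 0.79), atf21 also in the series matrix (1.69).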
